A study of Mus musculus with 4 samples.

Results

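The genes described here are the fibroblast growth factor (FGF) ligands, the FGF receptors and the genes that FGF signalling switches on to limit or carry out its effects, in the mouse cochleovestibular ganglion at embryonic day 11.5. They were taken by symbol: every Fgf gene with a number, Fgfr1 to Fgfr4, Spry1 to Spry4, Spred1 to Spred3, Dusp6, and Etv1, Etv4 and Etv5. This gave 37 of the 25239 gene symbols in the tables. They comprised 18 ligands that act outside the cell, 4 FGF homologous factors that stay inside it, 4 receptors, 8 feedback genes and 3 ETS transcription factors.

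The cochleovestibular ganglion (CVG) holds the young neurons that will connect the inner ear to the hindbrain. The study compared 4 genotype labels, with 1 strand-specific RNA library for each: control, Isl1CKO, Pou4f1KO and DKO. The labels were taken to mean a conditional deletion of the LIM-homeodomain gene Isl1 (Isl1CKO), a knockout of the POU-homeodomain gene Pou4f1 (Pou4f1KO) and loss of both (DKO). All embryos were of the same age and no treatment is named. The Cre driver of the conditional allele, the genotype behind the label control, and whether a library held 1 embryo or several are not given in the sources used here.

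An FGF ligand that leaves the cell binds a receptor tyrosine kinase together with heparan sulphate, and the receptor then works through the adaptor FRS2, Ras and the kinase ERK. ERK activity raises transcription of Spry, Spred and Dusp6, whose products damp the pathway, and of Etv1, Etv4 and Etv5, whose products bind DNA as ETS factors, so these genes are widely read as pathway output. In the ear, FGF ligands from the hindbrain, mesenchyme and ectoderm take part in forming the otic placode, and later FGF signals act in neuroblast formation and in patterning the otic epithelium.

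Levels are given in TPM, a transcript abundance that is scaled for transcript length and the library total, so genes can be set side by side. Between libraries a level also depends on what else each library holds, and the effect of other scalings is given at the end. With 1 library per label there was no spread between replicates, no test was possible, and each difference describes these libraries. Differences are log2 ratios of (TPM + 1), which understate differences of weak genes, and genes with a ratio of at least 1 in size, that is 2-fold, were called higher or lower. A gene was compared if it reached 1 TPM in at least 1 library, which held for 15049 genes, and the share of these past the same fold is given as the background. Under other scalings of the libraries the sign turned for some small ratios of members, the largest of them 0.28 in size.

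The number of genes at 1 TPM or more ran from 14284 to 14412 per library, and 1 TPM corresponded to a mean coverage of 4.95 to 5.93 reads per base. All 15 genes of a CVG neuron list were detected in every library, with a summed level of 2734 to 3442 TPM. At least 2-fold lower than control were 1 of them (Gata3) in the library labelled Isl1CKO and 1 (Pou4f1) in Pou4f1KO. In the library labelled DKO 5 were lower, Pou4f1 among them. The numbers at least 2-fold higher were 1, 1 and 0. This list holds Isl1 and Pou4f1, the genes that the labels name. The calls of Pou4f1 thus go with its label and do not describe neuron content, and the values of both genes, given below, enter the sums. Markers of other cells were also present: erythroid genes summed to 5157 to 6090.1 TPM, glia and neural crest genes to 567 to 693 TPM, mesenchymal genes to 287 to 493 TPM, endothelial genes to 72.2 to 121 TPM and macrophage genes to 45.5 to 62.1 TPM. From control through Isl1CKO and Pou4f1KO to DKO, Pou4f1 was at 146, 188, 16.6 and 14.6 TPM and Isl1 at 450, 854, 340 and 579 TPM. The Isl1 values go against the labels Isl1CKO and DKO, although a value for the whole gene does not check a conditional deletion. For this reason each of these is written as a labelled library, and every direction below that rests on them rests on the label.

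Of the 37 members, 29 reached 1 TPM in at least 1 library and 22 reached 5 TPM. In control the highest deposited TPM was that of Fgf13, a sodium channel partner, at 102 TPM. This value is uncertain because the deposited coverage of the gene was out of proportion to it, as given below. Fgf13 was followed by the ligand gene Fgf10 at 96.5 TPM, the ETS factor gene Etv5 at 88.2 TPM and the phosphatase gene Dusp6 at 77.1 TPM. Of the compared members, 6 passed 2-fold in at least 1 comparison of a mutant library with control (Fgf3, Fgf10, Fgf15, Fgf20, Fgfr3 and Spry1), while 23 stayed under 2-fold and 17 under 1.5-fold in all 3 such comparisons. The share of all compared genes was not worked out for these joint counts, so they are not read as many or few. In single comparisons with control, 0.585% to 2.34% of compared genes passed 2-fold in a given direction. The medians over these members were −0.19 for the library labelled Isl1CKO against control, −0.09 for Pou4f1KO and −0.17 for the library labelled DKO, beside −0.02, 0.02 and −0.01 over all compared genes.

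**Figure D1:**
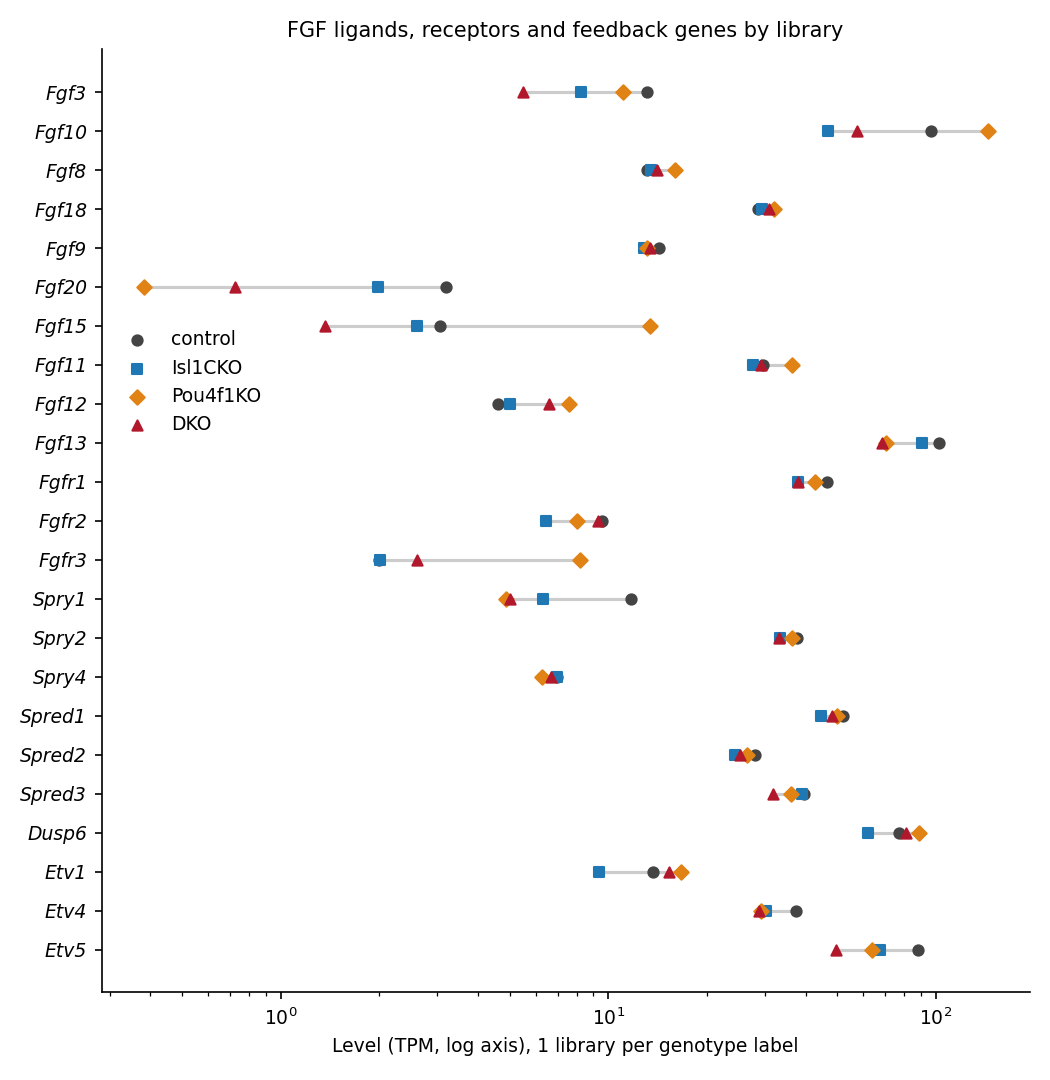
Level of each FGF pathway gene with values given in all 4 libraries. The x axis is TPM on a log scale, each row is a gene, each symbol is 1 library and the grey line spans the lowest to the highest library; no error can be drawn with 1 library per label. The widest spans are those of Fgf15 (1.36 to 13.4 TPM) and Fgf20 (0.382 to 3.19 TPM), and Spry4 and Fgf18 have narrow ones.

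Among the ligands of the FGF7 subfamily, Fgf10 was the most abundant and differed with the Isl1 label. FGF10 acts mainly on the epithelial form of FGFR2, and together with FGF3 it is required for formation of the otic vesicle. The gene lies on chromosome 13 from 118714699 to 118792573 (plus strand, build mm10) and has up to 5 exons in GENCODE M21. Fgf10 was at 96.5 TPM in control, 46.7 TPM in the library labelled Isl1CKO, 144 TPM in Pou4f1KO and 57.5 TPM in the library labelled DKO. Both libraries with an Isl1 label were below both libraries without it. The log2 ratio was −1.03 for the library labelled Isl1CKO against control and −1.31 for the library labelled DKO against Pou4f1KO, which are separate pairs with no library in common. In these bulk samples, fewer cells that make a transcript and less of it per cell cannot be told apart.

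Fgf10 was the only member at least 2-fold lower in the library labelled Isl1CKO than in control (1 of 29, background 0.618% of compared genes), and no member was at least 2-fold higher (background 0.585%). With FPKM in place of TPM its ratio there was −0.99, just inside 2-fold. With the Pou4f1 label Fgf10 was higher in both pairs, with a log2 ratio of 0.57 for Pou4f1KO against control and 0.30 for the library labelled DKO against the library labelled Isl1CKO.

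Fgf3 encodes a ligand of the same subfamily that signals from the hindbrain and otic tissue. On build mm10 Fgf3 spans 144838612 to 144843348 of chromosome 7, plus strand, with up to 4 exons in GENCODE M21. Fgf3 was at 13.1 TPM in control, 8.23 TPM in the library labelled Isl1CKO, 11.1 TPM in Pou4f1KO and 5.49 TPM in the library labelled DKO. Its lowest level was in the library labelled DKO, and again both libraries with an Isl1 label were the lower ones. The log2 ratio was −0.61 for the library labelled Isl1CKO against control, −0.89 for the library labelled DKO against Pou4f1KO and −1.12 for the library labelled DKO against control.

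Over both pairs that differ by the Isl1 label, 2 of the 29 compared members, Fgf3 and Fgf10, had log2 ratios of −0.5 or lower in each (6.90%), against 215 of 15049 genes (1.43%). Ratios of 0.5 or higher in each were found for 0 of the 29 members, against 130 of 15049 genes (0.864%). Markers of the otic epithelium, where both genes are also expressed, were lower in the same pairs: the summed level of 22 such genes was 1100 TPM in control, 848 TPM in the library labelled Isl1CKO, 688 TPM in Pou4f1KO and 648 TPM in the library labelled DKO, and none of them was listed at 0. Their median log2 ratio was −0.56 in the first pair, with 2 of 22 at least 2-fold lower and none higher, and −0.18 in the second, with 3 lower and 2 higher. In the first pair surface ectoderm genes had a median of −0.68 (0 of 7 at least 2-fold lower) and mesenchymal genes of −0.53 (1 of 17), beside 0.05 and 0.60 in the second. In the second pair hindbrain and neural tube genes had a median of −1.74 (13 of 17 at least 2-fold lower, 0 higher). Hox genes had a median of −1.86 there (8 of 10 lower, 0 higher). In the first pair the medians of these lists were −0.01 and 0.01. No gene of theirs was at least 2-fold lower in it, and 1 was higher, Lhx1 (3.05 TPM in control and 28.8 TPM in the library labelled Isl1CKO). The summed levels and the genes listed at 0 of the last lists are given with Fgf15 below. CVG neuron genes had a median of 0.30 in the first pair, with 1 of 15 at least 2-fold lower (Gata3) and 1 higher (Neurod4). In the second pair their median was −0.32, with 3 lower (Gata3, Neurog1 and Ntrk2) and 0 higher. The part of all these cells in the levels of Fgf10 and Fgf3 was not tested.

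The DNA just before the start sites of Fgf10 and Fgf3 is shown because these were the members that were lower with the Isl1 label in both pairs. ISL1 and POU4F1 are homeodomain proteins, and homeodomains often bind sites with the letters TAAT. Neither window holds TAAT on either strand (as TAAT or ATTA), letters found in 13 of 36 windows of members (36.1%) and in 54.9% of 32851 mouse promoter windows of 250 bases. In the sequences, capitals mark GGAA or its reverse complement TTCC, the core letters of ETS sites, which occur in 93.4% of all windows and 34 of the 36 windows of members. Sequences are those of RefSeq on build GRCm38.p6, the 250 bases before the start that the deposited tables also give, and both genes lie on the plus strand. The motifs were chosen after the values were seen, and a match or its absence says nothing about binding.
Fgf10 (chr13:118714449-118714698): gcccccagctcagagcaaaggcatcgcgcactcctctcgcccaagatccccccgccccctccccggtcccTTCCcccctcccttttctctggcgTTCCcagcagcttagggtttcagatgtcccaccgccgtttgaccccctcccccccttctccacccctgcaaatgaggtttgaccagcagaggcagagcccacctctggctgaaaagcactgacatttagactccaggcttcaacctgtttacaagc
Fgf3 (chr7:144838362-144838611): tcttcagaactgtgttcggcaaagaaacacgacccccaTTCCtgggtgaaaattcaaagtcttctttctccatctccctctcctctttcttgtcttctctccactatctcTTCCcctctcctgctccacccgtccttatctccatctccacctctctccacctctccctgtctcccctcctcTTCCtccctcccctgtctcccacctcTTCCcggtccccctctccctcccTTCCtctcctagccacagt
The Fgf10 window holds 2 ETS core matches, which begin 180 and 156 bases before the start, and the Fgf3 window holds 5, which begin 212, 140, 68, 42 and 19 bases before it.

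The remaining ligands of this subfamily were weak. Fgf22, whose product takes part in synapse formation, was at 0.394 to 1.60 TPM and Fgf7, which encodes keratinocyte growth factor, at 0.816 to 1.07 TPM. Neither passed 2-fold in any comparison.

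The FGF8 and FGF9 subfamilies held 3 ligand genes, Fgf8, Fgf18 and Fgf9, that differed little between libraries, and Fgf20, which differed more. Fgf8, whose product acts in otic neurogenesis and at the midbrain-hindbrain border, was at 13.1 TPM in control, 13.5 TPM in the library labelled Isl1CKO, 16.0 TPM in Pou4f1KO and 14.0 TPM in the library labelled DKO. Fgf18 was at 28.7, 29.3, 32.0 and 31.0 TPM in the same order, and Fgf9, which encodes a ligand that acts on the mesenchyme around the ear, at 14.3, 12.8, 13.1 and 13.4 TPM. For these 3 genes no log2 ratio to control was over 0.27 in size. Fgf17, the third FGF8-type gene, was at 0.628 to 1.61 TPM and did not pass 2-fold.

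Fgf20 is known from the cochlea, where its product promotes differentiation of hair cells and supporting cells. The gene lies on chromosome 8 from 40279166 to 40286953 (minus strand, build mm10) and has up to 3 exons in GENCODE M21. Fgf20 was at 3.19 TPM in control, 1.98 TPM in the library labelled Isl1CKO, 0.382 TPM in Pou4f1KO and 0.723 TPM in the library labelled DKO. Both libraries with a Pou4f1 label were below 1 TPM and both others were above it. The log2 ratio was −1.60 for Pou4f1KO against control, −1.28 for the library labelled DKO against control, and −0.79 for the library labelled DKO against the library labelled Isl1CKO. The mean coverage of the gene was 18.9 reads per base in control and 2.20 in Pou4f1KO, so the low values rest on few reads.

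Fgf20 and Spry1, described below, were the 2 members at least 2-fold lower in Pou4f1KO than in control (background 1.73%). Fgf20 and Fgf5, a ligand gene known from the hair cycle, had log2 ratios of −0.5 or lower in both pairs that differ by the Pou4f1 label, which is 2 of 29 members (6.90%) against 324 of 15049 genes (2.15%). Fgf5 was weak, at 1.05 and 0.955 TPM in control and the library labelled Isl1CKO, and at 0.146 and 0.171 TPM in Pou4f1KO and the library labelled DKO. Fgf5 reached the 1 TPM minimum only in control, and Fgf20 only in the libraries without the Pou4f1 label. Both genes thus entered the comparison through libraries where they were high, so the count of 2 describes them and is no evidence of an excess.

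Epithelial markers differed in the same direction as Fgf20. Of 22 otic epithelium genes, 16 were at least 2-fold lower and 1 (Pax8) higher in Pou4f1KO than in control, and 14 were lower and 1 (Tbx1) higher in the library labelled DKO. Surface ectoderm genes, 7 of 10 of them compared, summed to 149 TPM in control, 88.3 TPM in the library labelled Isl1CKO, 29.4 TPM in Pou4f1KO and 38.8 TPM in the library labelled DKO, with 6 lower in each of the latter libraries and none listed at 0. The part of these epithelia in the levels of Fgf20 and Fgf5 was not tested.

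Fgf15 stood out among the ligands by a high level in 1 library. It is the mouse counterpart of human FGF19, an endocrine FGF that in the embryo is made in the neural tube. On build mm10 Fgf15 spans 144896532 to 144900951 of chromosome 7, plus strand, with up to 3 exons in GENCODE M21. Fgf15 was at 3.06 TPM in control, 2.61 TPM in the library labelled Isl1CKO, 13.4 TPM in Pou4f1KO and 1.36 TPM in the library labelled DKO. Only Pou4f1KO was high, and the library labelled DKO, which also carries the Pou4f1 label, had the lowest level. The log2 ratio was 1.83 for Pou4f1KO against control but −0.61 for the library labelled DKO against the library labelled Isl1CKO, and −2.61 for the library labelled DKO against Pou4f1KO.

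Fgfr3, the third receptor gene, had the same single high library. It encodes a receptor found in neural progenitors and, later, in supporting cells of the cochlea. The gene lies on chromosome 5 from 33721724 to 33737068 (plus strand, build mm10) and has up to 18 exons in GENCODE M21. Fgfr3 was at 1.99 TPM in control, 2.01 TPM in the library labelled Isl1CKO, 8.16 TPM in Pou4f1KO and 2.60 TPM in the library labelled DKO. The first pair of libraries had nearly equal levels, the library labelled DKO was slightly above them, and Pou4f1KO was far above all 3. Its log2 ratio stood at 1.62 for Pou4f1KO against control and −1.35 for the library labelled DKO against Pou4f1KO. The deposited coverage of Fgfr3 was 8.34 per unit of FPKM in control, against 16.6 for most genes of that library. Its level relative to other genes is therefore less certain.

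Fgf15 and Fgfr3 were the 2 members at least 2-fold higher in Pou4f1KO than in control (background 0.977%). Together with Fgf10 they were the 3 members at least 2-fold lower in the library labelled DKO than in Pou4f1KO (background 1.12%), where no member was higher (background 0.645%). The departure from additivity subtracts the log2 ratios of both single mutants to control from that of the library labelled DKO, and it was −2.44 for Fgf15 and −1.36 for Fgfr3. With FPKM in place of TPM, the ratio of Fgfr3 for the library labelled DKO against Pou4f1KO was −0.99, under 2-fold. Fgf15 and Fgfr3 were the only members past 2-fold below additivity (2 of 29, background 1.11%), and none was past it above (background 1.41%).

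Markers of the hindbrain and neural tube were high in the same library. Of 24 such genes 17 were compared, and 15 of them were at least 2-fold higher and 1 (Irx3) lower in Pou4f1KO than in control, with a median log2 ratio of 2.04. Of the same 17 genes, 1 (Lhx1) was at least 2-fold higher than control and 0 lower in the library labelled Isl1CKO. In the library labelled DKO 3 were higher (Sim1, Lhx1 and Nkx6-1) and 1 lower (Irx3). All 24 genes summed to 62.2 TPM in control and 64.6 TPM in the library labelled Isl1CKO. The sum was 134 TPM in Pou4f1KO and 58.8 TPM in the library labelled DKO. Of these sums, Irx3 alone made up 45.4, 24.7, 15.8 and 14.7 TPM, so the control value rests largely on it. In these libraries 2, 4, 0 and 1 of the genes were listed at 0: Gsx2 and Dbx2 in control, Pax7, Gsx1, Dbx1 and Ptf1a in the library labelled Isl1CKO, and Pax7 in the library labelled DKO. Of 10 compared Hox genes, which are expressed along the hindbrain and spinal cord, 9 were at least 2-fold higher in Pou4f1KO, and the summed level of all 12 listed was 35.0, 35.1, 101 and 42.2 TPM. Hoxa5 and Hoxb5 were listed at 0 in the library labelled Isl1CKO. Their part in the levels of Fgf15 and Fgfr3 was not tested.

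**Figure D2:**
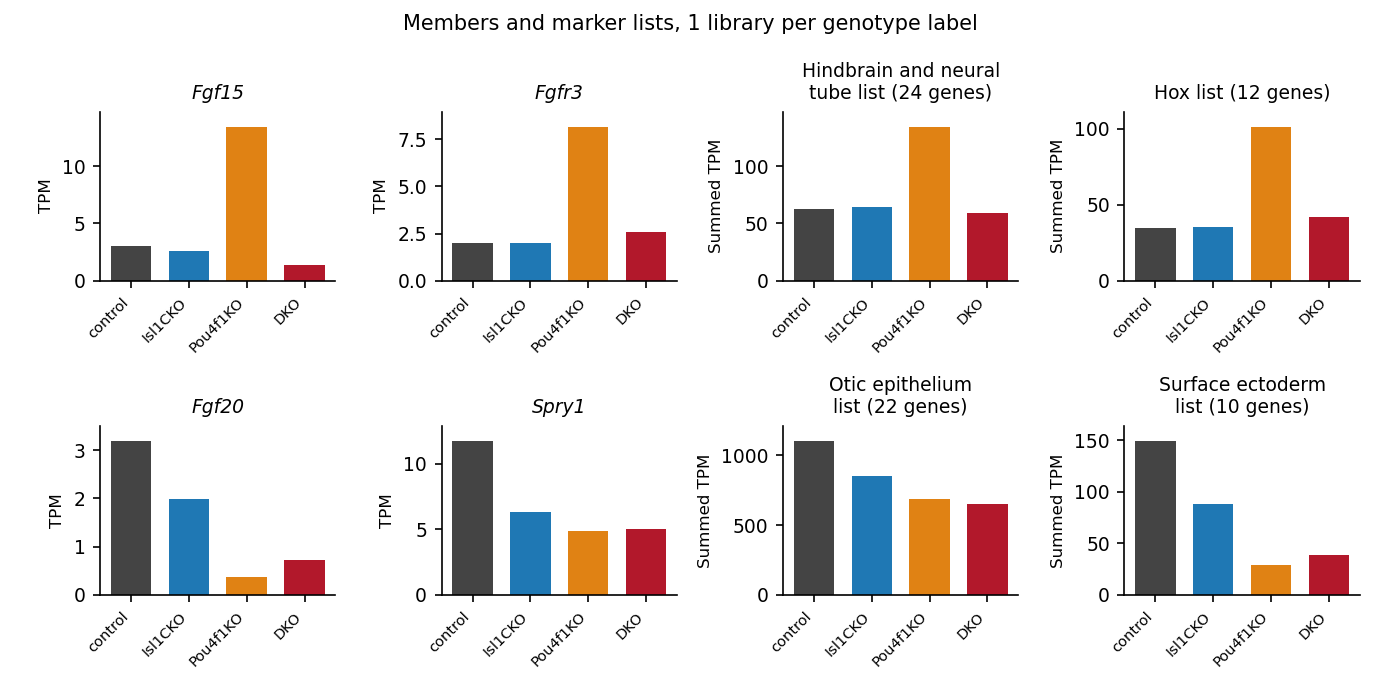
Levels of 4 FGF pathway genes beside summed marker lists. The y axes are TPM for a gene and summed TPM for a list, on a linear scale from 0, and each bar is 1 library. Fgf15 and Fgfr3 are high in Pou4f1KO, as are the hindbrain and Hox lists. Irx3 makes up 45.4 TPM of the hindbrain sum in control (62.2 TPM). Fgf20, Spry1 and both epithelial lists are highest in control.

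The other ligand genes were under 1 TPM in every library. These were Fgf1 (0.0407 to 0.162 TPM), Fgf2 (up to 0.186 TPM), Fgf4 (up to 0.0456 TPM), Fgf16 (up to 0.135 TPM), Fgf21 (up to 0.104 TPM) and Fgf23 (0.0195 to 0.0784 TPM), and Fgf6 was listed at 0 in all 4. FGF1 and FGF2 act broadly without a classical secretion signal, FGF21 is a metabolic hormone of the liver and FGF23 regulates phosphate. Fgf4 lies between Fgf3 and Fgf15 on chromosome 7, its start 22.8 kb after that of Fgf3 and 35.1 kb before that of Fgf15. The 3 neighbours thus had separate patterns: Fgf3 lower with the Isl1 label, Fgf4 under 1 TPM and Fgf15 high in Pou4f1KO.

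Summed over the 18 ligand genes, the level was 177 TPM in control, 119 TPM in the library labelled Isl1CKO, 232 TPM in Pou4f1KO and 127 TPM in the library labelled DKO. Fgf10 made up 54.4%, 39.1%, 62.0% and 45.3% of these sums and Fgf18 made up 16.2%, 24.6%, 13.8% and 24.4%. The sums thus followed Fgf10 in order.

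**Figure D3:**
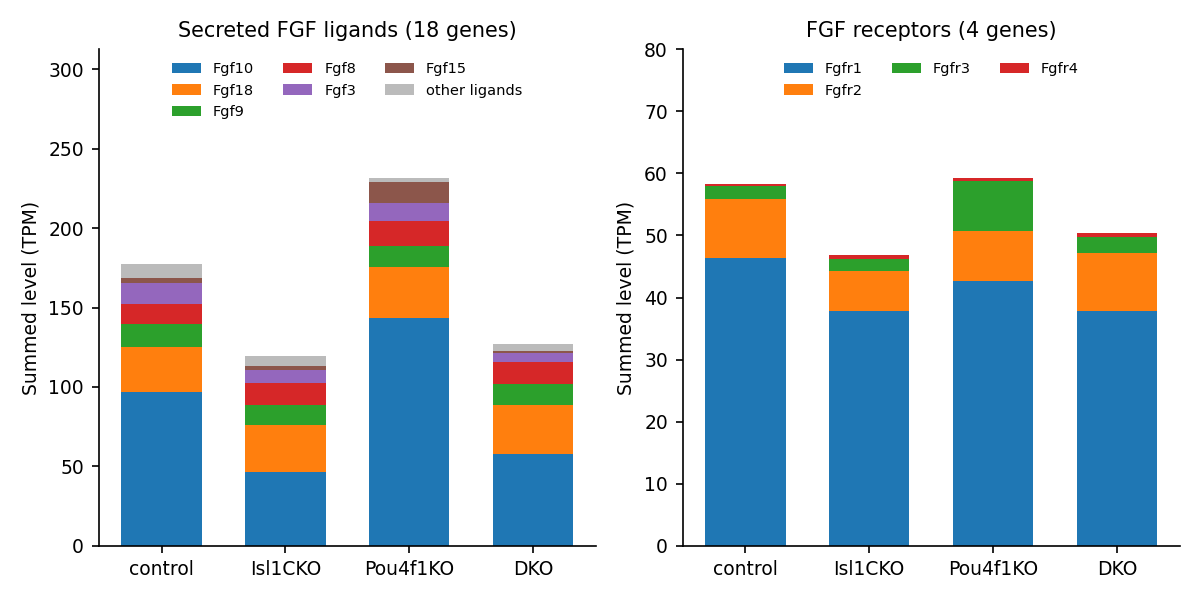
Summed level of the secreted FGF ligand genes and of the receptor genes in each library. The y axes are summed TPM from 0, each bar is 1 library and each colour is 1 gene, with the remaining ligands in grey. The ligand sum runs from 119 TPM in the library labelled Isl1CKO to 232 TPM in Pou4f1KO with Fgf10 as its largest part, and Fgfr1 is the largest part of each receptor sum.

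The FGF homologous factors resemble the ligands in sequence but remain in the cell, where they bind the tails of voltage-gated sodium channels. Fgf13 was at 102 TPM in control, 90.4 TPM in the library labelled Isl1CKO, 70.3 TPM in Pou4f1KO and 68.3 TPM in the library labelled DKO. Both libraries with the Pou4f1 label were the lower ones, with log2 ratios of −0.53 for Pou4f1KO against control and −0.40 for the library labelled DKO against the library labelled Isl1CKO. The deposited coverage of Fgf13 was only 4.04 reads per base in control, 0.111 per unit of FPKM against 16.6 for most genes of that library. Its level relative to other genes is therefore uncertain, and why the values part was not tested.

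Fgf11 was at 29.6 TPM in control, 27.6 TPM in the library labelled Isl1CKO, 36.4 TPM in Pou4f1KO and 29.2 TPM in the library labelled DKO. Fgf12 was at 4.59, 5.02, 7.58 and 6.56 TPM in the same order, so that it was higher with the Pou4f1 label, in the opposite direction to Fgf13, by log2 ratios of 0.62 and 0.33 in the respective pairs. Fgf14 was under 1 TPM except in Pou4f1KO, at 1.14 TPM, and its other levels were 0.125 to 0.230 TPM. It was compared only because of its level in Pou4f1KO. With the pseudocount of 1, none of the 4 passed 2-fold. With 0.5 or 0.1, Fgf14 was at least 2-fold higher in Pou4f1KO than in control. It was then also at least 2-fold lower in the library labelled DKO than in Pou4f1KO, and with 0.1 past 2-fold below additivity.

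Values are given for 2 genes of sodium channel alpha subunits, the proteins that the homologous factors bind, and counts over that list are not reported here. Scn9a, which encodes a channel of pain-sensing and other peripheral neurons, had 66.8 TPM in control, 47.3 TPM in the library labelled Isl1CKO, 41.0 TPM in Pou4f1KO and 14.6 TPM in the library labelled DKO. The last was the lowest, with log2 ratios of −2.12 to control, −1.63 to the library labelled Isl1CKO and −1.43 to Pou4f1KO. Scn10a, another channel gene of sensory neurons, had log2 ratios to control of −1.25, −1.10 and −1.81 in the library labelled Isl1CKO, Pou4f1KO and the library labelled DKO. Both genes were named because they passed 2-fold, so they do not describe the channel genes as a group.

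Of the receptors, Fgfr1 was the most abundant in every library, with 72.0% to 80.6% of the summed receptor level. It was at 46.4 TPM in control, 37.8 TPM in the library labelled Isl1CKO, 42.7 TPM in Pou4f1KO and 37.8 TPM in the library labelled DKO. Fgfr2, whose epithelial form is the main receptor for FGF3, FGF7 and FGF10, was at 9.56, 6.43, 8.01 and 9.31 TPM in the same order. It was lowest in the library labelled Isl1CKO, with a log2 ratio of −0.51 to control. The tables give whole genes, so the epithelial and mesenchymal forms of the receptors were not separated. Fgfr3 made up 3.40% of the receptor sum in control and 13.8% in Pou4f1KO, and Fgfr4 stayed between 0.417 and 0.689 TPM.

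Among the feedback genes Spry1 alone passed 2-fold. Sprouty proteins are made in response to growth factor signals and inhibit the route from the receptor to ERK. On build mm10 Spry1 spans 37639947 to 37644599 of chromosome 3, plus strand, with up to 3 exons in GENCODE M21. Spry1 was at 11.7 TPM in control, 6.29 TPM in the library labelled Isl1CKO, 4.87 TPM in Pou4f1KO and 4.998 TPM in the library labelled DKO. All 3 mutant libraries were below control, and the 2 with the Pou4f1 label were nearly equal. The log2 ratios to control were −0.80, −1.12 and −1.09, and the departure from additivity was 0.83. All 3 share the control library, so its own level enters each of them.

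Spry1 was thus counted among the members at least 2-fold lower in the library labelled DKO than in control, with Fgf3 and Fgf20 (3 of 29, background 2.34%), where none was higher (background 1.01%). With FPKM in place of TPM, the ratios of all 3 in that comparison and of Spry1 and Fgf20 in Pou4f1KO were under 2-fold. Between the library labelled DKO and the library labelled Isl1CKO no member passed 2-fold in either direction, against a background of 0.87% higher and 1.23% lower. As with Fgf20, the otic and surface ectoderm markers were highest in control, and their part in the level of Spry1 was not tested.

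The other Sprouty and Spred genes differed little between the libraries. Spry2 was at 37.6 TPM in control, 33.4 TPM in the library labelled Isl1CKO, 36.3 TPM in Pou4f1KO and 33.2 TPM in the library labelled DKO. Spry4 was at 6.96, 6.97, 6.27 and 6.66 TPM in the same order, and Spry3, which the tables place on an unlocalised X contig, was at 3.65 to 4.95 TPM. Spred proteins hold back activation of Raf by Ras. Spred1 was at 51.8, 44.5, 50.0 and 48.2 TPM, Spred2 at 28.01, 24.4, 26.4 and 25.2 TPM, and Spred3 at 39.6, 39.1, 36.1 and 31.7 TPM. The lowest log2 ratio to control among these 6 genes was −0.36, for Spry3 in the library labelled Isl1CKO.

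Dusp6, which encodes the phosphatase that removes phosphate from ERK in the cytoplasm, was at 77.1 TPM in control, 62.0 TPM in the library labelled Isl1CKO, 88.9 TPM in Pou4f1KO and 81.1 TPM in the library labelled DKO. It was lowest in the library labelled Isl1CKO, with a log2 ratio of −0.31 to control. Its ratio of 0.20 in Pou4f1KO turned to −0.09 when the libraries were scaled on neuronal genes. Its level therefore did not follow Spry1, although both are read as output of the same pathway.

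The ETS factor genes Etv4 and Etv5 were below control in all 3 mutant libraries, each by less than 2-fold. Etv5 was at 88.2 TPM in control, 67.5 TPM in the library labelled Isl1CKO, 63.7 TPM in Pou4f1KO and 49.6 TPM in the library labelled DKO, with log2 ratios to control of −0.38, −0.46 and −0.82. Both single mutants lay between control and the library labelled DKO, and the departure of Etv5 from additivity was 0.03. Etv4 was at 37.4, 30.2, 29.2 and 28.8 TPM in the same order, so that the 3 mutant libraries were close to each other. Etv1, which is also expressed in sensory neurons, was at 13.7, 9.37, 16.7 and 15.3 TPM and was lowest in the library labelled Isl1CKO (log2 ratio −0.50), with a ratio of 0.66 for the library labelled DKO against it.

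Counted together, 10 of the 11 feedback and ETS genes were below control in the library labelled Isl1CKO, 9 in Pou4f1KO and 9 in the library labelled DKO, as were 56.5%, 46.2% and 51.6% of all compared genes. Their median log2 ratios were −0.30, −0.09 and −0.17. The summed level of the 8 feedback genes was 258, 220, 253 and 235 TPM, and that of the 3 ETS genes was 139, 107, 110 and 93.7 TPM, from control to the library labelled DKO in the order above.

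**Figure D4:**
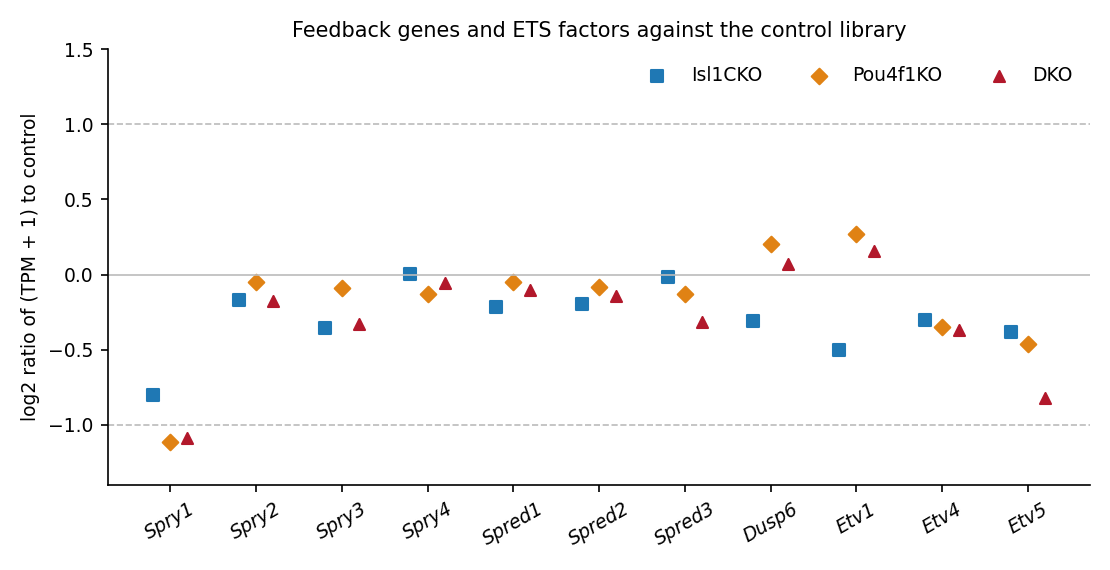
Log2 ratios to control of the 8 feedback genes and 3 ETS factor genes. The y axis is the log2 ratio of (TPM + 1), each symbol is 1 mutant library against the same control library, and dashed lines mark 2-fold. Spry1 is the only gene past a dashed line, in Pou4f1KO (−1.12) and the library labelled DKO (−1.09), and most other symbols lie between −0.5 and 0.

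The windows before the start sites of Spry1, Etv5 and Dusp6 are shown because these ERK-responsive genes had different patterns across the libraries. Capitals mark GGAA or TTCC as above, and each window is written 5′ to 3′ on the strand of its gene, which is minus for Etv5 and plus for the others.
Spry1 (chr3:37639697-37639946): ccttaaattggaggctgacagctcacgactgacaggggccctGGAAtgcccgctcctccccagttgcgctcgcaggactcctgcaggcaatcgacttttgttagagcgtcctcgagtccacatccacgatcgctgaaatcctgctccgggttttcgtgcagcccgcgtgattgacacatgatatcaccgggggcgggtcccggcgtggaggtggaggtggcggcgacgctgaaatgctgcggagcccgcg
Etv5 (chr16:22439571-22439820): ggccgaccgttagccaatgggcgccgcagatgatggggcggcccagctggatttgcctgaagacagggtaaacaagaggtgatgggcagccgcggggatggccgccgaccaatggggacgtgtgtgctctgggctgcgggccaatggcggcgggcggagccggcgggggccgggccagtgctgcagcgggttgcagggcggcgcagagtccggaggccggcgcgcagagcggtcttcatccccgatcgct
Dusp6 (chr10:99262981-99263230): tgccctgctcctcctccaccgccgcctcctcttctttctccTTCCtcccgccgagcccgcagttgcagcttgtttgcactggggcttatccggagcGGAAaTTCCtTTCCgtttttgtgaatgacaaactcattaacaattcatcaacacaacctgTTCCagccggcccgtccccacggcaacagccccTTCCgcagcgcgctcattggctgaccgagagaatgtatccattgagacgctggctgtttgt
The Dusp6 window holds 6 ETS core matches, which begin 209, 154, 149, 144, 94 and 61 bases before the start, Spry1 holds 1, which begins 208 bases before it, and the Etv5 window shown holds none. RefSeq has another Etv5 start site, whose window (chr16:22438369-22438618) holds 4. The longer form CCGGAA, or TTCCGG on the other strand, which contains the core and occurs in 12.03% of all windows, is in none of these 3, nor in those of Fgf10 and Fgf3. Of the 36 windows of members, 3 hold it (8.33%), for Fgf5, Fgf12 and Fgfr4. In Dusp6 1 match to TAAT or ATTA begins 119 bases before the start.

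Other genes of the pathway were taken from lists. None of 24 adaptor and Ras-ERK cascade genes, which carry the signal from the receptor to ERK, passed 2-fold in any of the 6 comparisons, and their summed level was 1835 to 1924 TPM. Of 19 co-receptors and ligand-binding proteins 15 were compared, and 1 was at least 2-fold lower in a mutant library than in control. This was Il17rd, which encodes the FGF antagonist Sef and is itself induced by FGF signalling. It was at 28.3 TPM in control, 19.0 TPM in the library labelled Isl1CKO, 13.8 TPM in Pou4f1KO and 12.04 TPM in the library labelled DKO, with a log2 ratio of −1.17 for the last. As for Spry1, control was the highest of the 4.

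Of 14 genes for heparan sulphate synthesis and editing, none passed 2-fold against control. Sulf1, whose product trims sulphate from heparan sulphate outside the cell, was at 50.4 TPM in control, 32.1 TPM in the library labelled Isl1CKO, 25.3 TPM in Pou4f1KO and 57.1 TPM in the library labelled DKO. It was at least 2-fold higher in the library labelled DKO than in Pou4f1KO (log2 ratio 1.14) and past 2-fold above additivity (1.78), as was the co-receptor gene Gpc3, a glypican (1.501). Mesenchymal genes had the same order at the top, with summed levels of 429, 287, 343 and 493 TPM, none listed at 0, and 9 of 17 past 2-fold above additivity. Their part in the levels of Sulf1 and Gpc3 was not tested.

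Of 16 other ERK-responsive or ERK-damping genes 15 were compared, and only Myc passed 2-fold against control. Myc, a proto-oncogene that drives growth and division, was at 21.7 TPM in control, 8.93 TPM in the library labelled Isl1CKO, 14.1 TPM in Pou4f1KO and 8.58 TPM in the library labelled DKO. Both libraries with an Isl1 label were the lower ones, as for Fgf10 and Fgf3. Its log2 ratio stood at −1.19 for the library labelled Isl1CKO against control and −0.66 for the library labelled DKO against Pou4f1KO.

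**Figure D5:**
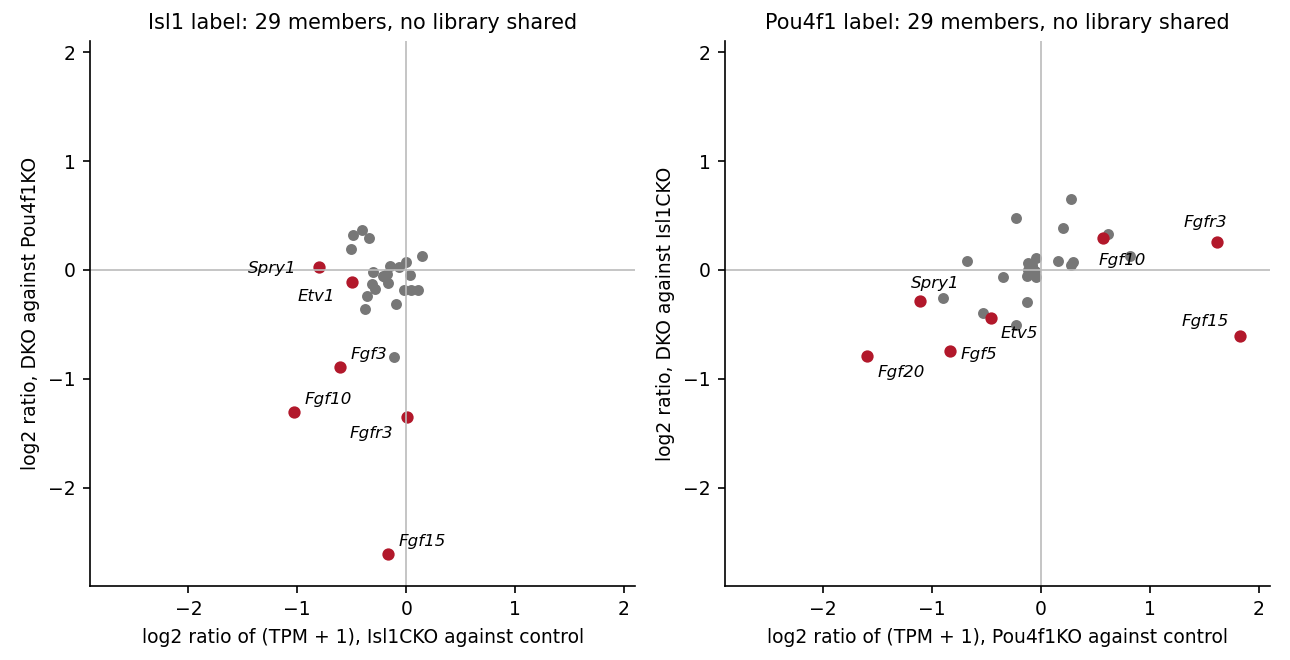
Log2 ratios of the 29 compared FGF pathway genes for each genotype label in both backgrounds. In each panel the x axis is the pair without the other label and the y axis the pair with it, so the axes share no library; each point is 1 gene, and those in red are named. In the Isl1 panel Fgf10 and Fgf3 lie lower left, and in the Pou4f1 panel Fgf20 and Fgf5 lie lower left while Fgf15 (1.83 and −0.61) lies lower right.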

How the data were processed

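RNA from 4 frozen mouse ganglia samples was sequenced as strand-specific libraries, 1 per genotype label, per the labels' protocols. The submitters' processing notes name StringTie, HISAT2, SAMtools, Trimmomatic and FastQC and the build mm10; versions, settings and the annotation are not given in the sources used here. TPM in the deposited tables is an abundance that the authors scaled to the same sum in each library. The deposited FPKM values differ from TPM by a constant in each library. Coverage, per the file headers, is the deposited mean number of reads per base and carries no scaling between libraries. Coverage over FPKM was the same within 0.001 for 63.7% to 64.0% of genes in a library, at 13.6 to 16.6. It departed by over 0.01 for 11 to 13 members with a value in a library, so their coverage was not read as depth. In every library these included Fgf8, Fgf18, Fgf12, Fgf13, Fgf14, Fgfr2, Fgfr3, Spry1, Spred1, Etv1 and Etv5. No counts are in these tables, so no count test or interval was used.

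Rows that share a symbol were summed. Ratios used a pseudocount of 1, a minimum of 1 TPM in at least 1 library and a 2-fold threshold, with Python 3.11.15, pandas 2.3.3 and numpy 2.4.6. The calculation was tested on simulated data. Members that reached 5 TPM, or passed 2-fold, have all 4 values given; up to 4 past 2-fold were named per pathway list, and some results of these lists are not reported here. Members and lists were chosen with earlier results of these data known. GENCODE M21 annotated 36 of the 37 members at the same place and strand. The RefSeq promoter table matched 27 members by symbol, with 36 start sites. Overlapping rows were found for 7 members, all of them under 1 TPM. Alternatives were 2 pseudocounts, FPKM, 3 rescalings, 2 filters and a 1.5-fold threshold.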

Additional observations from a re-analysis of the deposited data

Results flagged for a closer look

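The difference tied to the Pou4f1 label had opposite directions for Fgf15 in the 2 backgrounds. The log2 ratio was 1.83 for Pou4f1KO against control and −0.61 for the library labelled DKO against the library labelled Isl1CKO, from levels of 3.06, 2.61, 13.4 and 1.36 TPM in control, the library labelled Isl1CKO, Pou4f1KO and the library labelled DKO. With 1 library per label the difference between the backgrounds was not tested.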

How the results depend on the processing

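With 1 library per label no library could be left out, and no paired analysis was possible because no genotype label had replicates. Low genes moved with the pseudocount, and the share of all compared genes, given in brackets, rose as well. With 0.1, 5 members were at least 2-fold lower in Pou4f1KO than in control (3.12%). In the library labelled DKO 6 were lower than control (4.02%) and 2 lower than the library labelled Isl1CKO (2.57%). Above additivity were 3 (3.36%). With 0.5, 4 were lower in Pou4f1KO than in control (2.39%). In the library labelled DKO 2 were lower than the library labelled Isl1CKO (1.79%), and 2 were above additivity (2.23%). With FPKM, 0 members were lower than control in each of the 3 mutant libraries (0.166%, 0.917% and 1.24%). FPKM values are smaller than TPM, so the same pseudocount weighs more. A 5 TPM minimum left 1 lower member in Pou4f1KO (1.38% of the genes that reached it). At 1.5-fold, 3, 5 and 8 members were lower than control in the library labelled Isl1CKO, Pou4f1KO and the library labelled DKO (3.26%, 4.21% and 5.28%). In Pou4f1KO 4 were higher (3.47%). At that fold the library labelled DKO had 3 lower (3.30%) and 1 higher (3.47%) against the library labelled Isl1CKO. Against Pou4f1KO it had 5 lower (3.68%), and 5 were above additivity (5.24%). Scaling on 24 neuronal genes moved the median of all genes to −0.15, −0.25 and −0.10 against control and to 0.29 for the departure, and left 1 member above additivity (Spry1, 1.104). It turned the split of all genes in Pou4f1KO from 147 higher and 260 lower to 98 and 382, in the library labelled Isl1CKO from 88 and 93 to 67 and 130, and for the departure from 212 above and 167 below to 418 and 117; the feedback and ETS genes' medians there were −0.43, −0.36 and −0.27. Of 138 ratios of named members, 30 changed sign in some setting, the largest 0.28 in size. The 12 counts stayed within 1.5 times with no filter, with median-of-ratios scaling and without ribosomal and haemoglobin genes. Depth limits the members under 1 TPM.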
